A study of Mus musculus with 9 samples.

Results

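The genes described are 10 enzymes of serine synthesis and folate-dependent one-carbon metabolism, measured by RNA sequencing in the brown adipose tissue (BAT) of mice. They were taken by gene symbol: Phgdh, Psat1 and Psph of serine synthesis, Shmt1 and Mthfd1 of the cytosolic folate pathway, and Shmt2, Mthfd2, Mthfd2l, Mthfd1l and Aldh1l2 of the mitochondrial one. All 10 were listed in each of the 3 tables of the series, out of 16937 genes listed in any table. The series holds 9 BAT samples, 3 in each of 3 groups of adult mice on the C57Bl/6J background, and the labels give no sex. By the study's account each group mixed the sexes, and sex was in no fit. WT Cold mice were wild type and spent 8 h at 4 °C, GCN2 KO Cold mice were whole body Gcn2-/- and had the same exposure, and WT RT mice were wild type and stayed at 23 °C. GCN2 is a kinase that phosphorylates the translation factor eIF2α when amino acids run short, which raises translation of the transcription factor ATF4. No GCN2 KO group at 23 °C was analysed here, so the effect of cold could not be compared between genotypes. The deletion was in every tissue and not restricted to BAT. The title of 1 of the 3 samples labelled GCN2 KO names WT as well, and its group was taken from its genotype and temperature labels.

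Serine is made from the glycolytic intermediate 3-phosphoglycerate by PHGDH, PSAT1 and PSPH acting in turn. SHMT enzymes then move a carbon from serine to tetrahydrofolate, leaving glycine, and enzymes of the MTHFD family oxidise that carbon to formate in mitochondria and use it in the cytosol for purine, thymidylate and methionine synthesis. Several of these genes, among them Phgdh, Psat1, Psph, Shmt2 and Mthfd2, are known targets of ATF4 in cells under amino acid or mitochondrial stress. BAT burns lipid and glucose for heat in cold and takes up amino acids, serine and glycine among them.

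Each table gave, for 6 libraries, a normalized count, which is the read count of a gene divided by a size factor of the library. Libraries are named A, B and C within a group, and these letters pair nothing across groups. Depth was 27058799 to 30768064 reads on listed genes. A gene passed the test at an adjusted p under 0.05 from limma on log2(normalized count + 1), adjusted over all genes of the table, and SE is the standard error of a log2 change. On log2(CPM + 1), with reads scaled to a common library total, which changes the scaling and makes the pseudocount larger in reads, the median log2 fold change of all genes went from 0.0029 to -0.061 in WT Cold vs WT RT, from -0.0031 to -0.095 in GCN2 KO Cold vs WT Cold and from 0.0091 to -0.15 in GCN2 KO Cold vs WT RT; which of the changes moved it was not tested. On that scale the genes that passed in WT Cold vs WT RT went from 2268 higher and 2356 lower to 1579 higher and 2909 lower. Against WT RT the labelled knockouts went from 2713 higher and 2944 lower to 1480 higher and 4837 lower, and in GCN2 KO Cold vs WT Cold from 29 higher and 37 lower to 12 higher and 77 lower. All 12 brown adipocyte markers, Ucp1 and Cidea among them, were listed, with a summed level of 20123 to 21866 CPM in WT RT, 26744 to 28957 in WT Cold and 31916 to 32414 in the cold libraries labelled GCN2 KO.

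Eif2ak4, the gene that encodes GCN2, did not set the labelled knockout libraries below WT Cold. Its normalized counts were 347, 371 and 350.0 in the cold libraries labelled GCN2 KO and 171, 225 and 231 in WT Cold, a log2 change of 0.78 (SE 0.15, limma adjusted p = 0.0932). The adjusted p from DESeq2, run on recovered reads, was 0.00280. Against WT RT, Eif2ak4 was lower in WT Cold (log2 change -0.59, limma adjusted p = 0.0294, without overlap), and the labelled knockouts overlapped WT RT (log2 change 0.19, limma adjusted p = 0.260). Counts are summed over all exons of a gene and do not tell which exons were read. Why Eif2ak4 was not lower in the labelled knockouts was not tested, and the group is called by its label throughout.

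Per kilobase of exon, the scale on which genes can be set beside each other, Phgdh led the 10 genes in WT RT and Shmt1 led them in both cold groups. In WT RT, Phgdh stood at 11.1 ± 1.29 CPM per kb (SD, n = 3), higher than 80.1% of the genes ranked. Shmt1 followed at 9.03 ± 1.66, Shmt2 at 7.39 ± 0.367 and Mthfd1 at 6.96 ± 0.236, and the library values of neighbours in this order overlapped. Psph (6.23 ± 0.448) and Psat1 (5.01 ± 0.776) came next and overlapped each other. Mthfd2 and its paralog Mthfd2l, at 2.37 ± 0.512 and 1.86 ± 0.236, also overlapped. Mthfd1l (0.636 ± 0.162) and Aldh1l2 (0.150 ± 0.0278) were separate from all the others, and Aldh1l2 was higher than only 5.98% of genes.

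In WT Cold the order began with the cytosolic enzymes, Shmt1 at 12.3 ± 0.915 and Mthfd1 at 8.62 ± 0.714 CPM per kb (SD, n = 3). Phgdh was in place 4 at 5.39 ± 0.679, with overlapping values down to Psph in place 7 at 2.62 ± 0.216. The libraries labelled GCN2 KO Cold had the same first 4 genes, with Shmt1 at 12.5 ± 1.32 and Phgdh at 3.05 ± 1.04. Mthfd2l, Mthfd1l and Aldh1l2 held the last 3 places in every group.

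**Figure D1:**
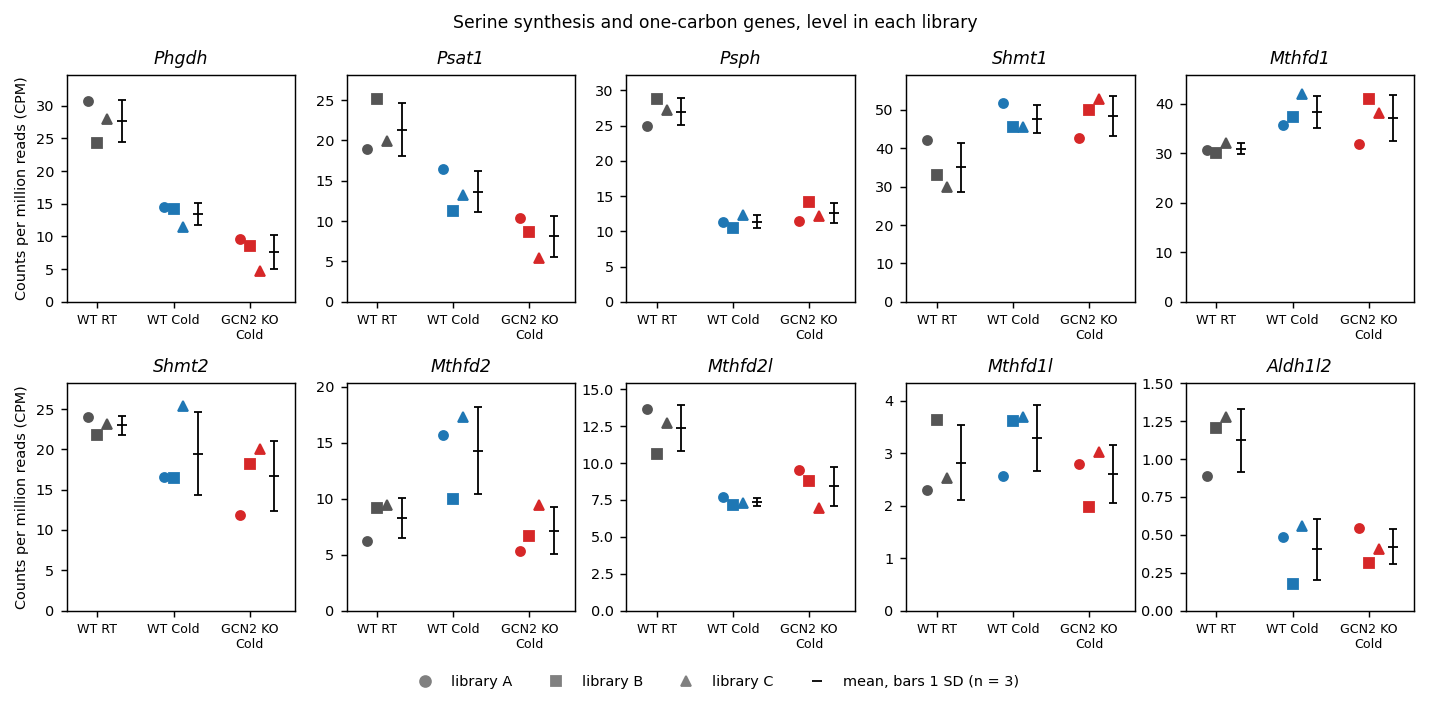
Level of each of the 10 genes in the 9 libraries. The vertical axis is CPM from 0, points are libraries A, B and C of each group, and bars are the mean ± 1 SD (n = 3). Phgdh, Psat1 and Psph lie highest in WT RT, Shmt1 and Mthfd1 lie lowest there on average, and Mthfd2 has its highest mean in WT Cold.

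Promoter sequences are shown for the 3 serine synthesis genes, which moved together between WT RT and WT Cold, and for Mthfd2, which moved the other way. RefSeq promoters, each 300 bases with 250 before and 50 after a start site, were found for 9 of the 10 genes by symbol, and not for Aldh1l2. Each is given 5′ to 3′ on the strand of its gene, here the minus strand, with the CCAAT box, or ATTGG where it lies on the other strand, in capitals. On GRCm38.p6 they span chr3:98339920-98340219 for Phgdh, chr19:15925010-15925309 for the upstream start site of Psat1, chr5:129787204-129787503 for Psph and chr6:83317555-83317854 for Mthfd2.
Phgdh: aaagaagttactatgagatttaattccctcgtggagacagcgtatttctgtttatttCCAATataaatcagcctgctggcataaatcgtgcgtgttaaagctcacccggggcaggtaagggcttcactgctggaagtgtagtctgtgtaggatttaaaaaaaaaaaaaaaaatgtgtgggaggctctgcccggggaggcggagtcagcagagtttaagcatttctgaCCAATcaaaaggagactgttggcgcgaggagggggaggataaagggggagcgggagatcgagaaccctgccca
Psat1: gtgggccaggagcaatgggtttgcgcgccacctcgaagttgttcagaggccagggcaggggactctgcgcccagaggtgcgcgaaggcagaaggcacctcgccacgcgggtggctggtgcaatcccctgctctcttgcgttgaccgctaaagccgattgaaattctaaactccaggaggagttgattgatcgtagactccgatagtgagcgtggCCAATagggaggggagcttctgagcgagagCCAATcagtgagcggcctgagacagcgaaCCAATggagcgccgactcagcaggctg
Psph: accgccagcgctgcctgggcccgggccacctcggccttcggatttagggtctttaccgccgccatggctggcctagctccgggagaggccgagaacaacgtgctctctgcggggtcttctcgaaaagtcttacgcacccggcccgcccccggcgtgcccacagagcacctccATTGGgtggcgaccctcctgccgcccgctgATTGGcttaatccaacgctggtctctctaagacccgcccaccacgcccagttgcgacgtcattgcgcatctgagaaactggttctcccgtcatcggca
Mthfd2: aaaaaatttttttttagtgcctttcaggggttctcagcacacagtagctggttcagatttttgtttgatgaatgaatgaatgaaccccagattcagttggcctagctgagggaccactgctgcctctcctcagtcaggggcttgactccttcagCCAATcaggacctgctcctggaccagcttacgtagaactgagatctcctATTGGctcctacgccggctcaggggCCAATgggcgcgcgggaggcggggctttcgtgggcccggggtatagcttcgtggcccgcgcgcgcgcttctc

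The CCAAT box is the element bound by the factor NF-Y in many promoters. It occurred 2 times in the Phgdh window, 3 times in that of Psat1, 2 times in that of Psph and 3 times in that of Mthfd2. Counting both start sites of Psat1, 6 of the 10 windows held CCAAT on either strand, against 37.4% of all 32851 mouse windows of the same length. The 4 windows without it were the second site of Psat1, Shmt2, Mthfd2l and Mthfd1l. TGATGNAA, the core of the element to which ATF4 binds with C/EBP factors, was in 0 of the 10 windows and in 3.97% of all windows. TGACG, a part of the cAMP response element, was in those of Psph, Shmt1 and Mthfd1l, and in 20.8% of all windows. GGGCGG, the GC box, was in 6 windows and in 35.7% of all windows, and the E-box CACGTG was in 0 and in 7.15%. All were searched on both strands, none contains another, and they were picked after these sequences had been seen. Genes with CCAAT in the window both rose and fell in cold, as the values that follow show.

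The first comparison asks what 8 h of cold did to these genes in wild type BAT. RNA of the serine synthesis genes was lower in WT Cold, that of the cytosolic members Shmt1 and Mthfd1 was higher, and the mitochondrial members split. Of the 10 genes, 7 passed the test, 3 higher and 4 lower in WT Cold, in a comparison where 27.7% of all genes passed (13.6% higher and 14.1% lower). On log2(CPM + 1) 7 passed as well, 2 higher and 5 lower, against 9.47% and 17.4% of all genes. Leaving out 1 library at a time gave 3 to 8 of the 10, with 0 higher and 3 lower without library B of WT RT. The median log2 fold change of the 10 was -0.37, and that of all genes was 0.0029. In 8 of the 10 the libraries of the groups did not overlap, as in 45.5% of all genes. Only Psph also had an absolute log2 fold change over 1, which together with the test applied to 8.14% of all genes.

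Phgdh, Psat1 and Psph, the 3 steps from 3-phosphoglycerate to serine, were all lower in WT Cold. Phgdh (chr3:98313170-98339990 on GRCm38, ENSMUSG00000053398) encodes the dehydrogenase of the first step. It had 430.4, 433 and 357 normalized counts in WT Cold and 867, 679 and 839 in WT RT. No WT Cold library reached the lowest WT RT library, and the difference was a log2 change of -0.96 (SE 0.13, limma adjusted p = 0.00221). Phgdh has processed pseudogenes, to which reads can be misassigned. Psph (chr5:129765558-129787449, ENSMUSG00000029446) encodes the phosphatase that releases serine. Its values were 338, 316 and 383 in WT Cold and 703, 802 and 818 in WT RT. The groups were far apart relative to their spread, with a log2 change of -1.16 (SE 0.12, limma adjusted p = 0.000636). Psph shares 452 bases of exon with Cct6a on the other strand, and the counting is not stated to use strand, so reads from these bases cannot be told apart; Cct6a itself differed by 0.097 (log2, adjusted p = 0.393, limma).

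Psat1 (chr19:15904678-15947337, ENSMUSG00000024640), the aminotransferase of the middle step, fell by less. Its normalized counts were 488, 342 and 414 in WT Cold and 535, 699.6 and 597 in WT RT. Library A of WT Cold came close to library A of WT RT without overlapping it, and the difference was a log2 change of -0.56 (SE 0.16, limma adjusted p = 0.0342). Its adjusted p was 0.104 without library B of WT Cold, 0.109 without library B of WT RT and 0.0832 without library C of WT RT, and it was 0.0685 from limma without a trend and 0.0564 with all groups in 1 fit on log2(CPM + 1). As these are bulk samples, fewer cells that express a gene and less of its RNA per cell cannot be told apart, here or in the results that follow.

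The cytosolic enzymes moved up in cold. Shmt1 (chr11:60788104-60811718, ENSMUSG00000020534), which interconverts serine and glycine in the cytosol, had 1538, 1384 and 1418 normalized counts in WT Cold and 1193, 919.9 and 896 in WT RT. Its WT Cold libraries were all above those of WT RT, and the gene rose with a log2 change of 0.54 (SE 0.12, limma adjusted p = 0.0153). Shmt1 shares 184 bases of exon with Smcr8 on the other strand, which rose too (log2 change 0.46, limma adjusted p = 0.0158). In GCN2 KO Cold vs WT Cold Smcr8 differed by -0.35 (log2, limma adjusted p = 0.199), and in GCN2 KO Cold vs WT RT by 0.11 (log2, limma adjusted p = 0.501). Mthfd1 (chr12:76255298-76319803, ENSMUSG00000021048) encodes the cytosolic enzyme with 3 activities that interconverts the one-carbon forms of tetrahydrofolate. It had 1063, 1130.2 and 1305 in WT Cold and 866, 836 and 960.3 in WT RT. The groups did not overlap, and the rise was the smallest of the 3 that passed, a log2 change of 0.39 (SE 0.11, limma adjusted p = 0.0286). The adjusted p of Shmt1 was 0.0540, 0.0560 and 0.0522 without library A of WT Cold or library B or C of WT RT. That of Mthfd1 was 0.0713, 0.0844 and 0.0914 without library B of WT Cold or library A or B of WT RT. From limma without a trend the call of Mthfd1 was lost too (adjusted p = 0.0662), as with all groups in 1 limma fit on log2(CPM + 1) (adjusted p = 0.0535).

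Among the mitochondrial enzymes, Mthfd2 rose and its paralog Mthfd2l fell. Mthfd2 (chr6:83305691-83325908, ENSMUSG00000005667) encodes the dehydrogenase and cyclohydrolase that is usually low in adult tissues and high in growing cells. Its normalized counts were 465, 301 and 539 in WT Cold and 175, 256 and 282 in WT RT. Library B of WT Cold was well below the other two and just above the highest WT RT library, and the rise was a log2 change of 0.86 (SE 0.26, limma adjusted p = 0.0408). This call held with library B of WT Cold left out but with no other: the adjusted p was 0.115 without library A of WT Cold, 0.0685 without library C, and 0.117, 0.0795 and 0.0534 without library A, B or C of WT RT. It was also 0.0529 on log2(CPM + 1), 0.0522 with all groups in 1 fit on that scale, 0.0816 from limma without a trend, and 0.00439 from DESeq2. Mthfd2l (chr5:90931117-91021368, ENSMUSG00000029376), which catalyses the same steps, had 228, 217 and 227 in WT Cold and 386, 296 and 382 in WT RT. The WT Cold libraries were nearly equal and below all WT RT libraries, with a log2 change of -0.65 (SE 0.14, limma adjusted p = 0.0126), and the adjusted p was 0.0503 without library A of WT RT.

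The other 3 mitochondrial genes did not pass. Shmt2 (chr10:127517123-127522444, ENSMUSG00000025403), the mitochondrial counterpart of Shmt1, had 492, 498 and 793 normalized counts in WT Cold and 677, 606 and 695 in WT RT. Library C of WT Cold stood above all WT RT libraries and the other two below them, so the groups overlapped, with a log2 change of -0.18 (SE 0.19, limma adjusted p = 0.497). Without that library the log2 fold change was -0.41, with a limma adjusted p of 0.0211. With any other library left out the limma adjusted p was 0.475 to 0.847. With all libraries it was 0.641 from DESeq2 and 0.588 from edgeR. Mthfd1l (chr10:3973118-4167081, ENSMUSG00000040675), which releases formate, had 76.0, 109.5 and 115 and 64.8, 101.5 and 75.8 in the same order, a difference of 0.31 (95% interval -0.27 to 0.89).

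Aldh1l2 (chr10:83487450-83534140, ENSMUSG00000020256) encodes the mitochondrial dehydrogenase that oxidises formyl-tetrahydrofolate to carbon dioxide. It was counted at 14.4, 5.27 and 17.3 in WT Cold and 25.0, 33.5 and 38.4 in WT RT. All WT Cold libraries were below all WT RT libraries, and a log2 change of -1.44 (SE 0.46, limma adjusted p = 0.0519) just missed the threshold. DESeq2 gave an adjusted p of 0.0468, and limma gave 0.0249 without library C of WT Cold. With any other library left out limma gave 0.0775 to 0.146. The adjusted p was 0.0528 from edgeR and 0.0643 from limma without a trend. With pseudocounts of 0.5 and 5 the log2 fold change was -1.49 and -1.17, and on log2(CPM + 1), where the gene lies near or under 1, it was -0.60 (adjusted p = 0.0249, limma), with an adjusted p of 0.0116 when all groups entered 1 limma fit on the same scale. Aldh1l2 shares 1056 bases of exon with D10Wsu102e on the other strand, whose difference was -0.026 (adjusted p = 0.908, limma).

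**Figure D2:**
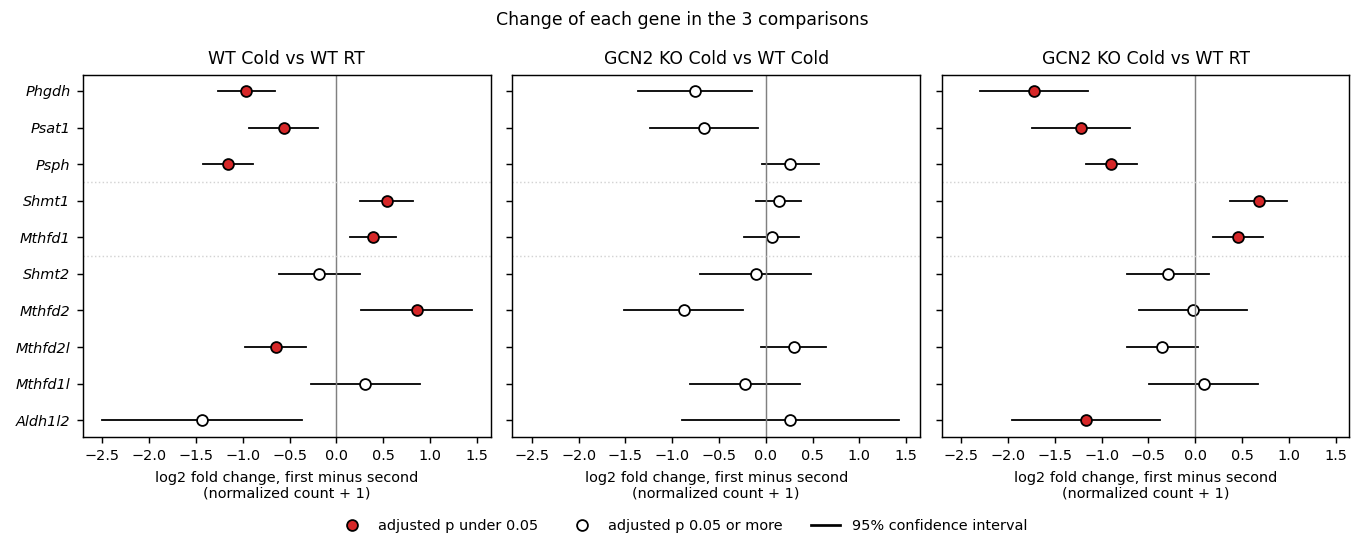
Log2 fold change of each gene in the 3 comparisons, on log2(normalized count + 1), with its 95% confidence interval. Filled points passed the test at an adjusted p under 0.05 from limma (3 against 3 libraries in each panel): 7 in WT Cold vs WT RT, 0 in GCN2 KO Cold vs WT Cold and 6 in GCN2 KO Cold vs WT RT. Dotted lines part the serine synthesis, cytosolic and mitochondrial genes.

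In the tables, WT RT libraries have a code prefix of their own while the cold groups share one, so whatever the prefix stands for and cold cannot be told apart in comparisons with WT RT. Markers of other cells moved in the same comparison. The summed level of 11 leukocyte markers was 288 to 512 CPM in WT RT and 130 to 177 in WT Cold. Of the 11, 6 were lower by the test, where 14.1% of all genes were. Itgam and the lymphocyte markers Cd3e, Cd3g, Cd79a and Ms4a1 did not pass. The part of leukocytes in the results was not tested. The 18 skeletal muscle markers summed to 2294 to 2732 CPM in WT RT and 2214 to 3720 in WT Cold, 10 markers of proliferating cells to 87.2 to 117 and 73.2 to 86.9, and 6 endothelial markers to 557 to 612 and 647 to 800.

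The second comparison sets the cold libraries labelled GCN2 KO against WT Cold. Phgdh, Psat1 and Mthfd2 had lower means in the cold libraries labelled GCN2 KO than in WT Cold, and none of the 10 genes passed the test. Of all genes, 0.405% passed. At an unadjusted p under 0.05, limma gave 3 of the 10, which were Phgdh, Psat1 and Mthfd2, against 15.3% of all genes. DESeq2 on the recovered reads gave 1 of the 10, Mthfd2, against 3.22% of all genes, and edgeR gave 0 against 0.270%. The groups did not overlap in 3 of the 10, Phgdh, Psat1 and Mthfd2l, against 22.0% of all genes. The median log2 fold change was -0.023, and that of all genes was -0.0031.

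None of the serine synthesis genes passed. Phgdh had 278, 251 and 138 normalized counts in the cold libraries labelled GCN2 KO and 382, 387 and 318 in WT Cold. Library C was the lowest of each group, and without overlap the difference was -0.76 (95% interval -1.37 to -0.15, adjusted p = 0.235 from limma and 0.126 from DESeq2). Psat1 had 303, 253 and 159.7 against 434, 306 and 368. Here too library C was the lowest of the labelled knockouts, library A came within a few counts of WT Cold B, and the difference was -0.66 (95% interval -1.24 to -0.084, adjusted p = 0.268, limma). Without library C of GCN2 KO Cold the log2 fold change of Phgdh was -0.45 (adjusted p = 0.284, limma) and that of Psat1 -0.40 (adjusted p = 0.435, limma). Psph had 335, 415 and 359.8 against 300.3, 283 and 341. These values overlapped, and the interval of the difference, -0.043 to 0.57, reached from just below 0 to a rise.

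Mthfd2 had the largest difference of the 10 genes in this comparison. Its normalized counts were 156, 196 and 279 in the cold libraries labelled GCN2 KO and 414, 269.5 and 479 in WT Cold. Library C of the first and library B of the second crossed, and the difference was -0.88 (95% interval -1.52 to -0.24). The adjusted p was 0.199 from limma, 0.201 from edgeR and 0.0447 from DESeq2, so the call rests on the tool. Mthfd2l had 278, 257 and 207 against 203, 194 and 202. It lay on the other side, with library C only just above WT Cold, and its difference was 0.30 (95% interval -0.047 to 0.64, adjusted p = 0.400, limma).

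The other genes overlapped between the groups. The differences were 0.14 for Shmt1 (95% interval -0.10 to 0.38) and 0.063 for Mthfd1 (-0.23 to 0.36), and the sign of the latter turned on log2(CPM + 1), to -0.053. They were -0.11 for Shmt2 (-0.70 to 0.49) and -0.22 for Mthfd1l (-0.81 to 0.37). For Aldh1l2, at 15.8, 9.18 and 12.0 against 12.8, 4.71 and 15.4 normalized counts, the interval of -0.90 to 1.42 covers a large change in either direction.

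Skeletal muscle markers differed between these groups beside the 10 genes. Relative to WT Cold, all 18 stood lower in the labelled knockouts, without overlap in 18 (against 22.0% of all genes) and past the test in 2, with a median log2 fold change of -2.06. Their summed level was 1178, 927 and 317 CPM in libraries A, B and C labelled GCN2 KO Cold and 3720, 3350 and 2214 in those of WT Cold. Among the labelled knockouts, library C was thus the lowest in these markers as in Phgdh and Psat1, while in WT Cold it was the lowest in the markers and Phgdh but library B was in Psat1, and the part of muscle RNA in those differences was not tested. Leaving out library C of both groups, a choice made after seeing the data, gave -0.54 for Phgdh, -0.40 for Psat1 and -0.93 for Mthfd2 (log2), and 0 of the 10 passed. Of the other lists, 9 of 10 markers of proliferating cells stood lower than in WT Cold (median log2 fold change -0.26, 3 without overlap), as did 7 of 9 listed leukocyte markers (-0.34, 1 without overlap) and 5 of 6 endothelial ones (-0.11, 1 without overlap), while 12 of 12 brown adipocyte markers stood higher (0.29, 7 without overlap). Their part in the differences was not tested.

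The third comparison sets the cold libraries labelled GCN2 KO against WT RT, which differ in genotype and temperature, so these cannot be told apart here. It shares its libraries with both other comparisons, and the values stand side by side with theirs. RNA of the serine synthesis genes was lower and that of Shmt1 and Mthfd1 higher, as between WT Cold and WT RT. Mthfd2 overlapped between the groups. Of the 10 genes, 6 passed, 2 higher and 4 lower, where 34.2% of all genes passed (16.4% higher and 17.8% lower). On log2(CPM + 1) 6 passed, 1 higher and 5 lower, against 8.94% and 29.2% of all genes. The falls of Phgdh, Psat1 and Aldh1l2 were also over 1 on log2(normalized count + 1), and 10.6% of all genes passed with a change of that size. The median log2 fold change was -0.32, and that of all genes was 0.0091, with 6 of the 10 not overlapping against 49.2% of all genes. Of the 18 muscle markers, 17 were lower by the test in this comparison, and of the 11 leukocyte markers 7; their part in it was not tested.

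Phgdh had 295, 267 and 145 normalized counts in the cold libraries labelled GCN2 KO and 817, 640.1 and 792 in WT RT. Even the highest of the first was less than the lowest of the second by a wide margin, and the fall was a log2 change of -1.72 (SE 0.25, limma adjusted p = 0.00166). Psat1 fell with a log2 change of -1.22 (SE 0.23, limma adjusted p = 0.00461), from 504, 659.8 and 563 to 321, 269 and 169, and Psph with a log2 change of -0.90 (SE 0.12, limma adjusted p = 0.00111), from 663, 756 and 771 to 355, 442 and 379.8. Neither overlapped. The log2 fold change of Phgdh was thus -1.72 in the labelled knockouts and -0.96 in WT Cold, each against WT RT, while for Psph it was -0.90 and -1.16.

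Shmt1 rose, from 1124, 867 and 846 to 1322, 1559 and 1647, with a log2 change of 0.68 (SE 0.13, limma adjusted p = 0.00563). Mthfd1 rose from 816, 788 and 906 to 986, 1279.9 and 1193, with a log2 change of 0.46 (SE 0.12, limma adjusted p = 0.0170). The adjusted p of Mthfd1 was 0.0943 on log2(CPM + 1), 0.0861 with all groups in 1 fit on that scale, and 0.0545, 0.0564 and 0.0597 without library B of GCN2 KO Cold or library A or B of WT RT. On log2(CPM + 1) the labelled knockouts stood 0.045, 0.40 and 0.30 above the WT RT mean of Mthfd1. Library C of WT RT stood 0.051 above it, so the groups overlapped on that scale. In normalized counts every labelled knockout library was above all WT RT libraries in both genes.

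Mthfd2 had 165, 209 and 294 normalized counts in the cold libraries labelled GCN2 KO and 165, 241 and 266 in WT RT. The groups covered nearly the same range, and the difference was -0.020 (95% interval -0.60 to 0.56, adjusted p = 0.959, limma). Mthfd2l, at 295, 274 and 218 against 364, 279 and 360.1, overlapped through library A and differed by -0.35 (adjusted p = 0.136 from limma, 0.0292 on log2(CPM + 1)). Shmt2 (-0.29, 95% interval -0.73 to 0.15) overlapped. Mthfd1l (0.089, 95% interval -0.50 to 0.68) overlapped too, and its sign turned to -0.082 on log2(CPM + 1).

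Aldh1l2 was counted at 16.8, 9.78 and 12.7 in the cold libraries labelled GCN2 KO and 23.6, 31.6 and 36.2 in WT RT. The groups did not overlap, and Aldh1l2 fell with a log2 change of -1.17 (SE 0.35, limma adjusted p = 0.0314). On log2(CPM + 1), where the gene lies near or under 1, the labelled knockouts stood at -0.46, -0.69 and -0.59 relative to the WT RT mean. Its adjusted p was 0.0785, 0.0665, 0.0940 and 0.109 without library B or C of GCN2 KO Cold or library B or C of WT RT.

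Ratios of pairs of genes within a library depend on no scaling between libraries. They compare the RNA of enzymes of different compartments or steps, and not the enzymes or their activity. The ratio of Mthfd2 to Mthfd2l per kb of exon was 0.864, 1.64 and 1.41 in WT RT, 3.89, 2.65 and 4.52 in WT Cold and 1.07, 1.45 and 2.57 in the cold libraries labelled GCN2 KO. All WT Cold libraries were above all others, library C labelled GCN2 KO coming closest, with means of 1.31 ± 0.400, 3.68 ± 0.953 and 1.70 ± 0.781 (SD, n = 3). The exact two-sided permutation p was 0.1 for WT Cold against either group, the smallest that 3 against 3 libraries can give, and 0.5 between the other two. The ratio of mitochondrial Shmt2 to cytosolic Shmt1 was 0.709, 0.823 and 0.968 in WT RT, 0.400, 0.450 and 0.698 in WT Cold and 0.345, 0.456 and 0.475 in the labelled knockouts. Both cold groups were below WT RT (exact two-sided permutation p = 0.1 each) and overlapped each other (p = 0.6).

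Within serine synthesis, the ratio of Phgdh to Psph was 2.15, 1.47 and 1.79 in WT RT, 2.22, 2.39 and 1.62 in WT Cold and 1.45, 1.05 and 0.667 in the cold libraries labelled GCN2 KO. WT RT and WT Cold overlapped (exact two-sided permutation p = 0.4), and the labelled knockouts were below both, just so in library A (p = 0.1 each). The ratio of Phgdh to Shmt1, the serine-making against the serine-using enzyme of the cytosol, had means of 1.25 ± 0.184, 0.440 ± 0.0474 and 0.251 ± 0.106 (SD, n = 3) in WT RT, WT Cold and the labelled knockouts. No pair of groups overlapped in it. None of these 12 exact tests of 4 ratios can reach 0.05, and the smallest p adjusted over them was 0.133.

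**Figure D3:**
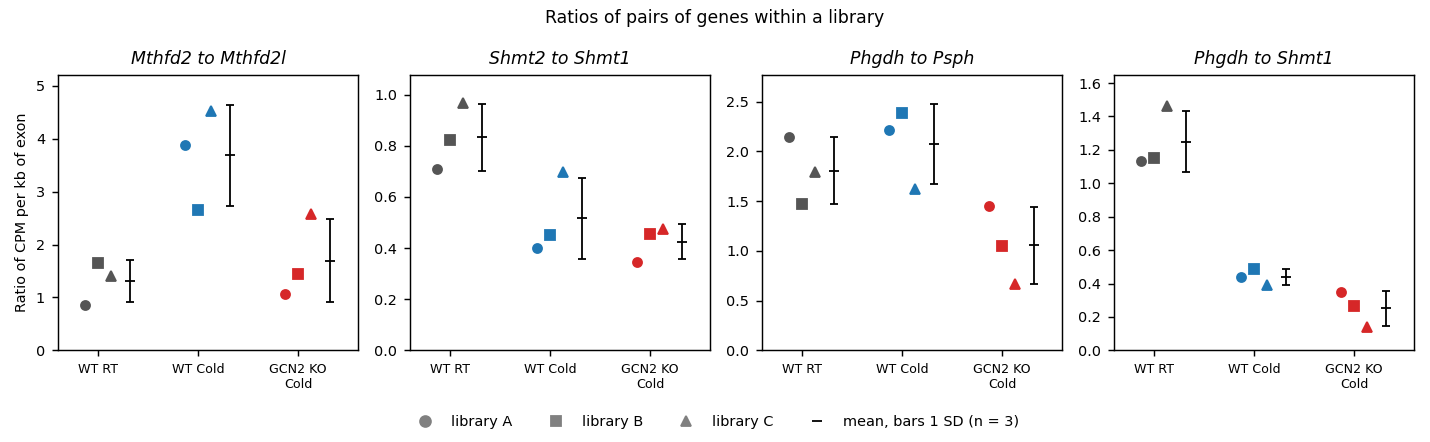
Ratios of CPM per kb of exon between pairs of the genes within each library, with axes from 0, points for libraries A, B and C, and bars for the mean ± 1 SD (n = 3). The Mthfd2 to Mthfd2l ratio is highest in WT Cold, at 2.65 to 4.52, and the Phgdh to Psph ratio is lowest in GCN2 KO Cold, at 0.667 to 1.45.

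The genes most like 3 of the members over the 9 libraries were found by the root mean square difference of log2(CPM + 1), each gene centred on its own mean, among 16608 genes listed in all tables. For Phgdh, whose own spread on this measure was 0.77, the closest were Limch1 (0.13), Ccdc80 (0.17) and Tln2 (0.18). Limch1 averaged 17.5 CPM in WT RT, 8.53 in WT Cold and 5.15 in the labelled knockouts, the same order as Phgdh at 27.7, 13.4 and 7.59. For Mthfd2 (0.48), the closest were Tle3 (0.19), Rragd (0.19) and Cd209e (0.20), of which Cd209e was under 1 CPM in each group. For Aldh1l2 (0.31), they were Fam186a (0.066), Cyb5d2 (0.085) and Rb1 (0.091), which is a likeness on a scale where 1 is added to every value, while Aldh1l2 averaged 1.12, 0.404 and 0.421 CPM in WT RT, WT Cold and the labelled knockouts and Rb1 52.9, 37.3 and 36.8. With 3 groups and genes that share libraries, many genes have a like pattern, and no test was made.

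The neighbouring pathways were described over 8 lists, of which 75 genes were listed in the tables and Tdh and Folr1 were not. In WT Cold vs WT RT, 16 were higher and 11 lower by the test, with a median log2 fold change of 0.047. In GCN2 KO Cold vs WT Cold, 0 passed from limma, DESeq2 or edgeR, and 10 had an unadjusted limma p under 0.05, against 15.3% of all genes. In GCN2 KO Cold vs WT RT, 19 were higher and 12 lower, with a median of 0.17. These shares are read against 27.7%, 0.405% and 34.2% of all genes.

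More of ATF4 and its targets outside the 10 genes rose than fell in cold. Of 15 genes, 8 were higher and 1 lower by the test in WT Cold than in WT RT, against 13.6% and 14.1% of all genes. Their median log2 fold change was 0.39. Atf4 had 7872, 7363 and 8838 normalized counts in WT Cold and 2864, 4442 and 3301 in WT RT, and Asns, asparagine synthetase, had 2197, 1818 and 2442 and 1535, 1672 and 1703. Neither gene overlapped between the groups, and they rose with a log2 change of 1.20 (SE 0.16, limma adjusted p = 0.00176) and a log2 change of 0.39 (SE 0.12, limma adjusted p = 0.0409). Ddit4, an inhibitor of mTORC1 signalling, rose with a log2 change of 1.69 (SE 0.44, limma adjusted p = 0.0255), and Sesn2, a leucine-sensing inhibitor of the same pathway, with a log2 change of 1.26 (SE 0.21, limma adjusted p = 0.00482). The gene that fell was Pycr1, of mitochondrial proline synthesis (log2 change -0.85, limma adjusted p = 0.0396). In this comparison Atf4 rose while Phgdh, Psat1 and Psph fell.

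In the cold libraries labelled GCN2 KO, Atf4 had 5602, 5104 and 8064 normalized counts, against 6996, 6587 and 7850.5 in WT Cold. Library values overlapped, with a log2 change of -0.22 (SE 0.17, limma adjusted p = 0.598). Asns, at 2122, 2250.2 and 2145 against 1953, 1627 and 2169, overlapped too (log2 change 0.19, limma adjusted p = 0.477). Of the 15 genes, 12 were lower, with 0 past the test in limma, DESeq2 or edgeR. At an unadjusted limma p under 0.05 there were 2, Pck2 and Aldh18a1, against 15.3% of all genes. Against WT RT, 7 of the 15 were higher and 4 lower by the test, where 16.4% and 17.8% of all genes were. Atf4 (log2 change 0.99, limma adjusted p = 0.00632) and Asns (log2 change 0.58, limma adjusted p = 0.00111) were among the higher ones. The lower ones were Pycr1 (log2 change -1.43, limma adjusted p = 0.0222), Chac1, Pck2 and Aldh18a1, enzymes of proline, glutathione and phosphoenolpyruvate metabolism.

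The lists of transport and of breakdown of serine and glycine are described by their genes, since 3 of 8 and 2 of 10 passed in WT Cold vs WT RT where 27.7% of all genes did. Of the transport genes, 2 were higher and 1 lower in WT Cold than in WT RT. The lower one was Slc1a5, a carrier of neutral amino acids with serine among them, at 7015 ± 559 normalized counts in WT Cold and 11419 ± 613 in WT RT (SD, n = 3), a log2 change of -0.70 (SE 0.084, limma adjusted p = 0.00122). The higher ones were Slc25a38, the mitochondrial glycine carrier (log2 change 0.51, limma adjusted p = 0.0194), and Slc7a10, a serine and glycine carrier (log2 change 0.37, limma adjusted p = 0.0364). Slc1a5 and Slc25a38 passed in the same directions in GCN2 KO Cold vs WT RT, with log2 fold changes of -0.998 and 0.57. Of 10 genes of breakdown and glycine cleavage, 0 were higher and 2 lower in WT Cold. These were Gcsh, the lipoyl carrier protein of the glycine cleavage system (log2 change -0.67, limma adjusted p = 0.00120), and Srr, serine racemase (log2 change -0.34, limma adjusted p = 0.0413). Against WT RT, the labelled knockouts had 2 higher, Cth, which makes cysteine from cystathionine, and Dld, and 0 lower. Of all genes, 16.4% were higher and 17.8% lower there.

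In the list of folate uptake, retention and reduction, 2 of 7 genes were lower in WT Cold and 0 higher, where 27.7% of all genes passed. They were Folr2, a folate receptor of macrophages (log2 change -0.99, limma adjusted p = 0.0229), and Slc46a1, the proton-coupled folate carrier (log2 change -0.53, limma adjusted p = 0.0252). Folr2 was also lower in GCN2 KO Cold vs WT RT, with a log2 fold change of -1.67, and Qdpr was higher there. Folr2 moved with the leukocyte markers, which summed to 288 to 512 CPM in WT RT and 97.4 to 154 in the labelled knockouts, and their part in it was not tested.

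Of 10 other folate enzymes, 2 were higher and 1 lower in WT Cold, a share near the 27.7% of all genes. Aldh1l1, the cytosolic counterpart of Aldh1l2, had 3424, 4511 and 6268 normalized counts in WT Cold and 2785, 2523 and 2733 in WT RT. Library values did not overlap, and it rose with a log2 change of 0.78 (SE 0.19, limma adjusted p = 0.0213), while Aldh1l2 was lower on average. Mtr, methionine synthase, fell (log2 change -0.68, limma adjusted p = 0.00608) and Mtrr, the reductase that keeps it active, rose (log2 change 0.38, limma adjusted p = 0.0405). All 3 passed in the same directions in GCN2 KO Cold vs WT RT, with log2 fold changes of 0.89, -1.18 and 0.42, and Tyms was higher there as well. Of the genes named from these lists, Ddit4, Sesn2, Pycr1 and Folr2 were taken for the size of their change, and the others beyond Atf4 and Asns were also chosen after their values were seen.

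**Figure D4:**
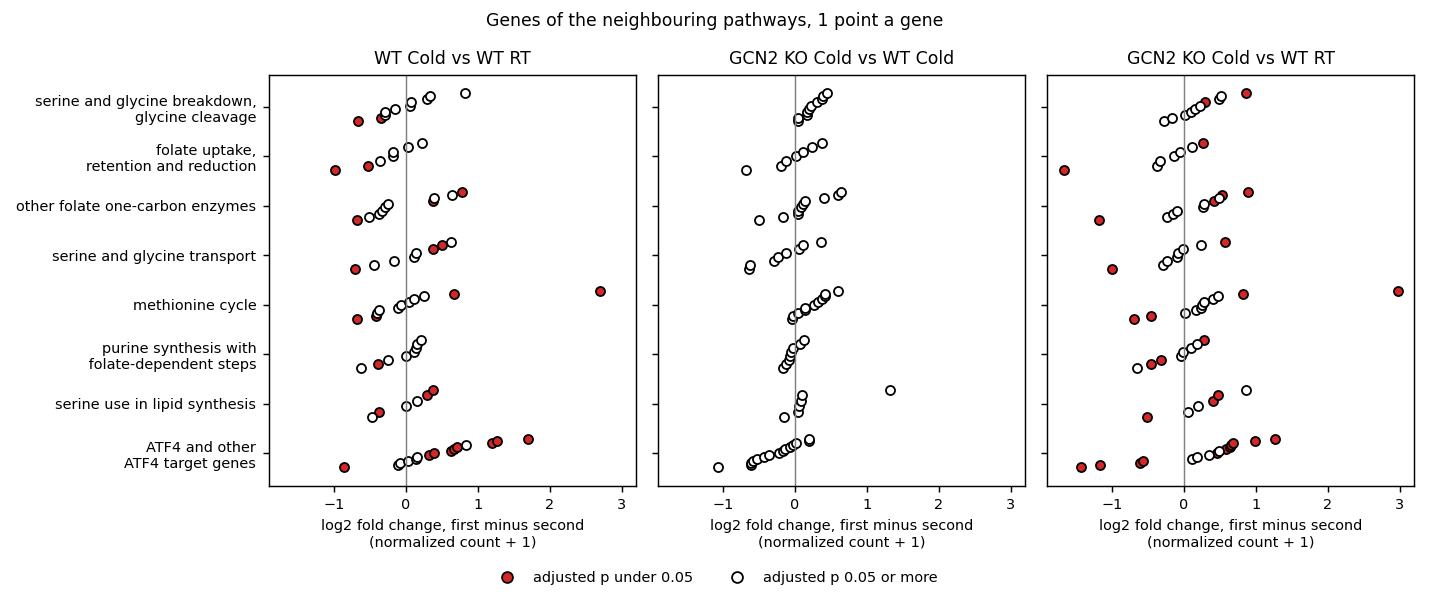
Log2 fold change of the 75 genes of 8 neighbouring pathway lists in the 3 comparisons, on log2(normalized count + 1), 1 point a gene. Filled points passed the test at an adjusted p under 0.05 from limma: 27 in WT Cold vs WT RT, 0 in GCN2 KO Cold vs WT Cold and 31 in GCN2 KO Cold vs WT RT. The point furthest right is Nnmt of the methionine cycle list.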

How the data were processed

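Per the methods and the submitters' processing notes, the authors trimmed reads of poly(A) RNA with Trimmomatic 0.36, aligned them with STAR 2.5.2b (GRCm39), counted unique exonic reads with featureCounts of Subread 1.5.2 and ran DESeq2. The deposited tables hold a signal per gene and library, the read count over a size factor set within each table. Further columns of the deposited tables, with log2 fold changes and p-values of the authors' own comparisons, were not used. Columns name no sample, so each library code was given the group shared by the 2 tables that hold it. Whole reads were recovered for 100% of values (tolerance 0.01), and CPM is these reads scaled to the same total on listed genes. Every listed gene had at least 61 reads over 6 libraries.

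limma 3.58.1 (R 4.3.3), with a trend of variance on mean and adjustment by Benjamini and Hochberg, was fitted to log2(signal + 1) of the 6 libraries of a table, after a check on simulated data. Alternatives were DESeq2 1.42.0 and edgeR 4.0.16 on recovered reads, other pseudocounts, a mean count filter of 50, log2(CPM + 1), no trend, 1 fit for all groups on log2(CPM + 1), libraries left out, and an added fold threshold. By the rule, named genes were the 10 members, Eif2ak4, Atf4, Asns, the 3 pathway genes with the largest change in each comparison with WT RT, and the 3 closest in pattern to each of 3 members; other pathway genes were named after their values were seen. Members, lists and tests were chosen with earlier results of these data known. A second row with the symbol Ppat has the identifier of another gene in GENCODE M21 and was left out, and 1 gene of the pathway lists is not reported here. Lengths and coordinates are from GENCODE M21 on GRCm38 (16900 of 16937 identifiers). P-values measure the spread between samples labelled as biological replicates.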

Additional observations from a re-analysis of the deposited data

How the results depend on the processing

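Of the 10 genes, 7 passed in WT Cold vs WT RT, 0 in GCN2 KO Cold vs WT Cold and 6 in GCN2 KO Cold vs WT RT. In the first, limma without a trend gave 4 and the added threshold of an absolute log2 fold change over 1 gave 1. Leaving out each library in turn gave 3 to 8, with 4, 3 and 4 without library A, B or C of WT RT. In the second, DESeq2 gave 1, and leaving out each library gave 0 throughout. In the third, the added threshold gave 3, and leaving out each library gave 4 to 6. Other settings stayed within 1.5 times of these counts.

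For single genes, 372 values kept their direction and side of the threshold, 31 lost a call, 9 gained one and 15 changed sign, none of them in a gene that had passed. In GCN2 KO Cold vs WT Cold, Mthfd1 was -0.053 on log2(CPM + 1), the scale also used with all groups in 1 fit, which gives the same difference, and it ranged from -0.013 to 0.17 with a library left out. Shmt2 ranged from -0.26 to 0.13 and Aldh1l2 from -0.20 to 0.56. In GCN2 KO Cold vs WT RT, Mthfd2 ranged from -0.24 to 0.17. Mthfd1l was -0.082 on that scale, and ranged from -0.054 to 0.27. The cause of these changes was not tested. No paired analysis was possible because the columns carry no replicate numbers.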

Other observations

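The methionine cycle, which takes the one-carbon unit on from methionine synthase, held the largest rise of all the neighbouring genes. Nnmt, which methylates nicotinamide with S-adenosylmethionine, had 8901, 11749.5 and 8645 normalized counts in WT Cold and 1534, 1337 and 1589 in WT RT. Every WT Cold library was above every WT RT library, with a log2 change of 2.70 (SE 0.13, limma adjusted p = 4.19e-05), and Nnmt rose with a log2 change of 2.97 (SE 0.089, limma adjusted p = 2.17e-06) in the labelled knockouts against WT RT. Mat2a, which makes S-adenosylmethionine, rose (log2 change 0.67, limma adjusted p = 0.00260), and Ahcyl1 and Ahcyl2, relatives of the enzyme that clears S-adenosylhomocysteine, fell (log2 change -0.42, limma adjusted p = 0.0152) and (log2 change -0.67, limma adjusted p = 0.00614). The other 7 of the 11 genes did not pass in WT Cold vs WT RT, where 27.7% of all genes did.

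Purine synthesis, a main use of formyl-tetrahydrofolate, had 1 gene of 8 past the test, against 27.7% of all genes. Gart alone passed in WT Cold vs WT RT, where it fell (log2 change -0.39, limma adjusted p = 0.0158). Against WT RT, the labelled knockouts had Gart and Atic, the enzymes that use formyl-tetrahydrofolate, lower and Paics higher. Genes of serine use in lipid synthesis moved in both directions in WT Cold. Of 6 genes 3 passed, where 27.7% of all genes did. Sptlc1, a subunit of serine palmitoyltransferase (log2 change 0.30, limma adjusted p = 0.0242), and Ptdss2, which makes phosphatidylserine (log2 change 0.38, limma adjusted p = 0.0156), rose, while Kdsr, which acts after the palmitoyltransferase, fell (log2 change -0.37, limma adjusted p = 0.0461). Of these 25 genes, 0 passed in GCN2 KO Cold vs WT Cold from limma, DESeq2 or edgeR, and 0 had an unadjusted limma p under 0.05, against 0.405% and 15.3% of all genes from limma. Nnmt was named for the size of its change, and the others were also chosen after their values were seen.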
